A study of Mus musculus with 4 samples.

Results

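A stretch at the start of mouse chromosome 14 holds many near-copies of a few genes, most of them known only by predicted names. The 10 listed genes D830030K20Rik, Gm10413, Gm10408, Gm3002, Gm5796, Gm3264, 4930555G01Rik, Gm3317, Gm10406 and Gm5797 belong to it and were chosen by symbol, with every probe whose RefSeq accession maps to one of them. They had 19 probes, with 1 spot each per array, of the 39429 probes on the array, and 10 of the 20832 genes that could be named. Of these probes, 18 passed the filter on dim signals, which asked for a signal well above background on at least 3 of 4 arrays in either channel.

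The samples were total RNA from the cortex on the injured side, 24 h after permanent closure of the left middle cerebral artery (pMCAO), a model of ischaemic stroke. Both groups were C57BL/6 mice aged 8 weeks with the same pMCAO, and they differed by genotype, Ndrg2KO or wildtype; the labels name neither the knockout allele nor an uninjured control. Each of the 4 2-colour Agilent arrays paired an Ndrg2KO sample in the Cy3 channel with a wild-type sample in the Cy5 channel, matched by replicate number. The dyes were never exchanged, so a dye effect of a single probe and an effect of genotype cannot be told apart. No label says that each sample was a separate animal, so the p-values measure only how these samples vary, and part of that spread may be technical.

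Many of these repeats belong to the takusan genes, a rodent-specific family related in sequence to Dlg5, a scaffold protein of the membrane-associated guanylate kinase group. Alpha-takusan proteins are known in neurons, where they act with the postsynaptic scaffold PSD-95, the product of Dlg4, and with AMPA-type glutamate receptors at excitatory synapses. No file used here says which of the 10 genes encode such a protein. Near-identical copies may also share a probe, so a value below is that of a probe, named by the gene to which the array's accession assigns it.

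The promoters show how alike these genes are. RefSeq's table for GRCm38.p6 held 10 promoters for 9 of the 10 genes, with no entry for Gm3002, each covering 250 bases before and 50 bases after a start. Of these, 9 fell into 2 sets of related sequences, and that of Gm5796 stood alone. The larger set held 6 promoters with 88.4 to 100% identity between pairs, over aligned stretches of 145 to 301 columns. A window of 60 bases upstream of the start is shown for each because these genes, written 5′ to 3′ on the gene's strand, are nearly the same there, and capitals mark a base that most of the set does not share at that place.
D830030K20Rik start 2, chr14:3224191-3224250, plus strand: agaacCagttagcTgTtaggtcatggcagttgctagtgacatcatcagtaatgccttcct
Gm10413, chr14:3394979-3395038, plus strand: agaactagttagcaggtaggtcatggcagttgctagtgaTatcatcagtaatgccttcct
Gm10408, chr14:3449205-3449264, plus strand: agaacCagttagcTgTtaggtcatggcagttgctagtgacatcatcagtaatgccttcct
4930555G01Rik, chr14:5050534-5050593, plus strand: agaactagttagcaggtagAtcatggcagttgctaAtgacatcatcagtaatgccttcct
Gm3317, chr14:5163465-5163524, plus strand: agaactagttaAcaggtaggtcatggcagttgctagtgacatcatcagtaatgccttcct
Gm5797, chr14:7332450-7332509, minus strand: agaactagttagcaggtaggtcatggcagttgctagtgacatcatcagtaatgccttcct

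In this window the second start of D830030K20Rik and Gm10408 had the same 60 bases, and no promoter of the set held more than 3 such bases. All 6 ended in the 20-base run atcatcagtaatgccttcct. The windows were placed around that run, the longest that all 6 share before the start, so its presence in each was fixed by this choice. Searched on both strands, the run was in 30 of the 32851 promoters of the table, these 6 included (0.0913%).

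The smaller set held the other start of D830030K20Rik together with Gm3264 and Gm10406, with 84.3 to 92.9% identity over 214 to 261 aligned columns. Its windows are shown for the same reason, with capitals of the same meaning; at 1 place all 3 windows differ, and each is in capitals there.
D830030K20Rik start 1, chr14:3208331-3208390, plus strand: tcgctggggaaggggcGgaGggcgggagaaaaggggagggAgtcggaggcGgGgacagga
Gm3264, chr14:4855319-4855378, plus strand: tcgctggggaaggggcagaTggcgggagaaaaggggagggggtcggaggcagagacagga
Gm10406, chr14:7027640-7027699, minus strand: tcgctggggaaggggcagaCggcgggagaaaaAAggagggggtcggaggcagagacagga

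These 3 windows open with the 16-base run tcgctggggaaggggc, which 24 promoters of the table held on either strand (0.0731%). These windows too were placed around the longest run that the set shares before the start, and the 24 include these 3. D830030K20Rik thus has a start of each kind.

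Before the values of these genes, the arrays themselves are described in ranges. Each array had 43020 spots outside the controls, none saturated, and the share well above background was 73.6 to 74.9% for Ndrg2KO and 76.7 to 79.0% for wild type. All markers on the array for neurons (7), astrocytes (5), microglia (5), oligodendrocytes (5) and endothelium (5) were well above background on every array in both channels, as were 5 striatal and 4 neutrophil and monocyte markers; of 6 germ cell markers 5 were, though dim, at a median of 2.37 times the local background in the Ndrg2KO channel. Between the genotypes, 2 oligodendrocyte markers were higher in Ndrg2KO (median log2 ratio of the list 0.16), while 2 microglia markers (-0.13), 1 astrocyte marker (-0.11), 1 neutrophil and monocyte marker (-0.38) and 1 germ cell marker (-0.03) were lower, at a limma adjusted p under 0.05; their part in the results below was not tested. The probe for Ndrg2, the targeted gene, had log2 ratios of Ndrg2KO over wild type of -0.22, -0.22, -0.18 and -0.11 on arrays 1 to 4, with a mean of -0.18 ± 0.05 (SD, n = 4, limma adjusted p = 0.0244). With the scanner software's own signals that mean was -0.04 (limma adjusted p = 0.528), and the call was lost without array 1, 2 or 3 (limma adjusted p = 0.0831, 0.0879 and 0.0721). Replacing loess by median centring moved the mean the other way, to -0.81 (limma adjusted p = 4.9e-06). That setting called 77.7% of all probes, with a median log2 ratio of -0.157. The mean log2 levels of the Ndrg2 probe were 15.55 for Ndrg2KO and 15.73 for wild type. No source used here places the probe within the deleted part, so it does not check the genotype, and the samples are called knockout-labelled below. Ratios of arrays 1 and 2 correlated at 0.726 over all kept probes, those of arrays 3 and 4 at 0.626, and the other pairs at 0.41 to 0.468.

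The listed genes mostly differed little between the genotypes, and those that differed were mostly higher in the knockout-labelled samples. Of the 18 kept probes, 5 were higher, for D830030K20Rik, Gm10413, Gm10408, Gm5796 and Gm5797, and 2 were lower, for D830030K20Rik and 4930555G01Rik, at a limma adjusted p under 0.05; the other 11 did not pass. The probe of 4930555G01Rik passed the filter on dim signals through the wild-type channel alone, and among the 15 probes well above background on all arrays in both channels 5 were higher and 1 was lower (40%, beside 23% of all probes so chosen). The 7 probes called among the 18 are 38.9% of the kept probes, beside 20.9% called among all 30259 probes tested. Of all probes 9.29% were called higher and 11.7% lower. The median log2 ratio of the kept probes was 0.0855, from -0.21 to 0.30, and that of all probes was -0.0121. Below 0 were 5 of the 18 (27.8%), beside 53.7% of all probes. On all 4 arrays 11 of the 18 (61.1%) had the same sign, beside 43.3% of all probes. Several probes can read the same near-identical transcripts, so the 18 are not separate measurements of 18 transcripts. The genes were also proposed with earlier results of these data known. Their shares beside those of all probes are therefore a description, not a test of an independent list.

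The count of 7, and its excess over the share of all probes, depended on the arrays and on the processing. Without array 1 it was 1 (5.56%, beside 9.28% of all probes), and without array 2 it was 2 (11.1%, beside 8%). Without array 3 it was 5 (27.8%, beside 10.9%), and without array 4 it was 3 (16.7%, beside 12.6%). Without the replicate block, that is, with the channels fitted as 2 groups of 4 rather than paired by array, it was 3 (16.7%, beside 11.2%). The scanner software's own signals gave 4 calls, all higher (22.2%, beside 14.4%). Median centring in place of loess gave 10, of which 7 were higher (55.6%). It called 77.7% of all probes, so the share of the listed genes' probes then lay below that of the whole array. These were partly other probes. The higher calls of D830030K20Rik, Gm10413 and Gm10408 were kept, and those of Gm5796 and Gm5797 were lost. The other probes then called higher were 4930555G01Rik A_55_P2054007 and A_55_P2129467, Gm3002 A_55_P2070748 and Gm3317 A_55_P2186230.

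**Figure D1:**
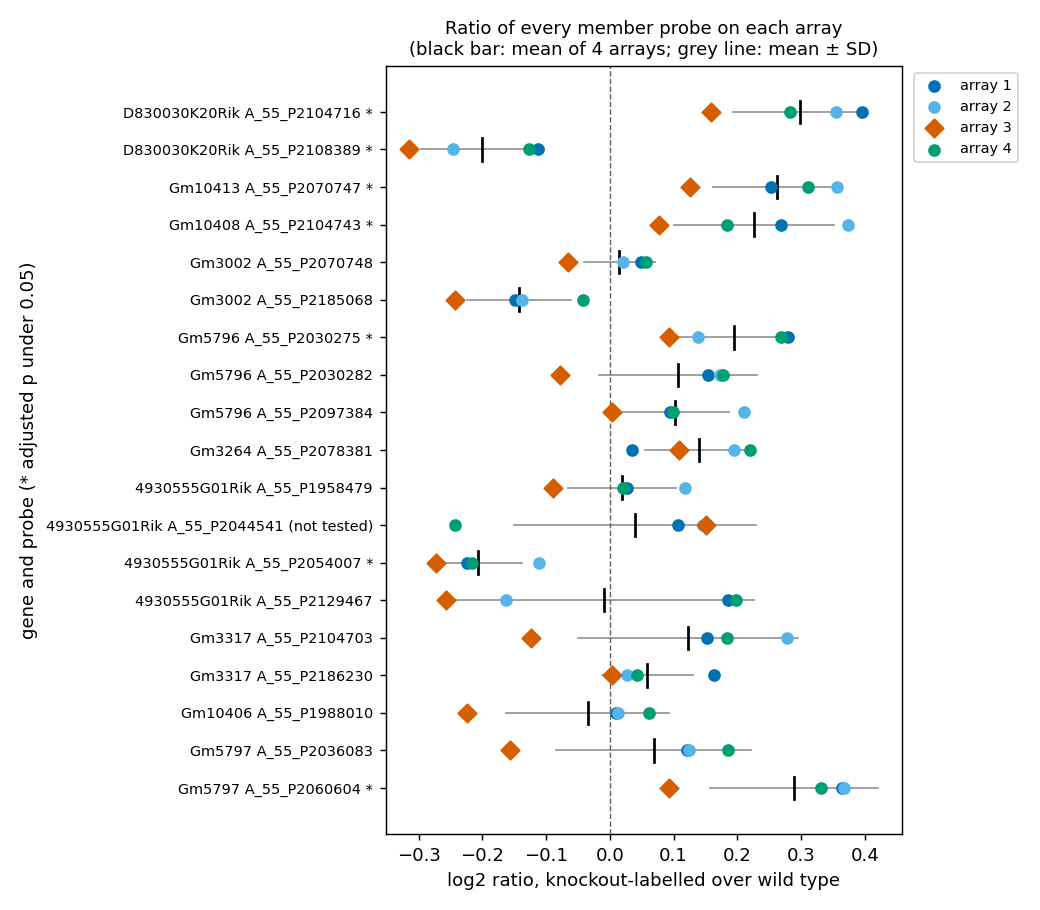
Log2 of the knockout-labelled over the wild-type signal for all 19 probes of the 10 genes on each of the 4 arrays (points, array 3 as diamonds), with the mean as a black bar and ± SD as a grey line; an asterisk marks a probe at an adjusted p under 0.05. The probes with an asterisk and a mean above 0, 1 each for D830030K20Rik, Gm10413, Gm10408, Gm5796 and Gm5797, lie above 0 on all 4 arrays, and the diamond is the lowest point in 17 of the 18 tested probes.

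D830030K20Rik gave ratios of opposite sign at its 2 probes, and nothing used here assigns either probe to 1 of its 2 starts. Levels are log2 intensities after normalization and are compared only within a probe. At probe A_55_P2104716 the knockout-labelled samples read 8.68, 8.55, 8.37 and 8.56 on arrays 1 to 4, and the wild-type samples read 8.29, 8.19, 8.21 and 8.28. The 2 groups did not overlap, and the gap was smallest on array 3. The log2 ratios were 0.40, 0.35, 0.16 and 0.28, with a mean of 0.30 ± 0.10 (SD, n = 4), or 1.23-fold higher with the knockout label (limma adjusted p = 0.0101). This probe passed in all 12 alternatives that gave it a value, with means of 0.22 to 0.45 and adjusted p-values of 0.00444 to 0.0465. The alternative with 1 probe per gene, the brightest, took the gene's other probe, which was lower (mean log2 ratio -0.20, limma adjusted p = 0.0308).

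At the other probe of D830030K20Rik, A_55_P2108389, the order was turned. The knockout-labelled samples read 9.80, 9.64, 9.58 and 9.79 and the wild-type samples 9.91, 9.88, 9.89 and 9.92. The groups again did not overlap, but here the knockout-labelled samples were the lower ones. The log2 ratios of -0.11, -0.25, -0.31 and -0.13 had a mean of -0.20 ± 0.10 (SD, n = 4), or 1.15-fold lower (limma adjusted p = 0.0301). The sign held in all 13 alternatives, and the call was lost in 7 of them, with adjusted p-values up to 0.105. The ratios of the 2 probes, 0.16 to 0.40 and -0.31 to -0.11, did not overlap on any array, so no single direction is given for this gene.

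Gm10413 and Gm10408, predicted genes whose promoters belong to the larger set, were both higher in the knockout-labelled samples. For Gm10413 the knockout-labelled samples read 7.91, 7.91, 7.73 and 7.85 and the wild-type samples 7.66, 7.55, 7.60 and 7.54. Every knockout-labelled sample lay above every wild-type sample. The log2 ratios were 0.25, 0.36, 0.13 and 0.31, with a mean of 0.26 ± 0.10 (SD, n = 4), or 1.20-fold (limma adjusted p = 0.0140), and the call was lost without array 1 or without array 2, with an adjusted p of at most 0.0593.

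For Gm10408 the knockout-labelled samples read 7.50, 7.39, 7.26 and 7.33 and the wild-type samples 7.23, 7.01, 7.18 and 7.15. These groups were separate too, with the lowest knockout-labelled sample, that of array 3, close to the highest wild-type sample. The log2 ratios of 0.27, 0.37, 0.08 and 0.18 gave a mean of 0.23 ± 0.13 (SD, n = 4), or 1.17-fold (limma adjusted p = 0.0295). The call was lost in 4 of 13 alternatives, with adjusted p-values up to 0.102.

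Gm5797, also of the larger promoter set, had 1 probe that passed and 1 that did not. At A_55_P2060604 the knockout-labelled samples read 11.39, 11.35, 10.97 and 11.21 and the wild-type samples 11.02, 10.98, 10.87 and 10.88. Here the groups overlapped, because the knockout-labelled sample of array 3 lay below the wild-type samples of arrays 1 and 2. The log2 ratios were 0.36, 0.37, 0.09 and 0.33, with a mean of 0.29 ± 0.13 (SD, n = 4), or 1.22-fold higher (limma adjusted p = 0.0155), but the mean was -0.0044 with median centring. The call was lost in 6 of 13 alternatives, among them those without array 1, without array 2 and without the replicate block (limma adjusted p = 0.0614, 0.0649 and 0.0587) and the scanner software's signals (limma adjusted p = 0.0507). At A_55_P2036083 the ratios were 0.12, 0.12, -0.16 and 0.19, with a mean of 0.07 ± 0.15 (SD, n = 4, limma adjusted p = 0.457).

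Gm5796, whose promoter stood apart from both sets, had 3 probes with means above 0, of which 1 passed. At A_55_P2030275 the log2 ratios of 0.28, 0.14, 0.09 and 0.27 had a mean of 0.19 ± 0.09 (SD, n = 4), or 1.14-fold higher (limma adjusted p = 0.0312), a call lost in 5 of 12 alternatives. The other 2 probes had means of 0.11 ± 0.12 and 0.10 ± 0.08 (SD, n = 4, limma adjusted p = 0.204 and 0.161). The sign of both turned with median centring, to -0.23 and -0.04.

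4930555G01Rik had the most probes of the 10 genes, and 3 of its 4 were not well above background on some arrays. Its probe A_55_P2044541 was not well above background in either channel on any array and was not tested. At A_55_P2054007 no knockout-labelled sample and 3 of 4 wild-type samples were well above background. The fitted log2 ratios there were -0.22, -0.11, -0.27 and -0.22 (limma adjusted p = 0.0197). The mean was -1.07 with the scanner software's signals (limma adjusted p = 0.0603) and turned to 0.47 with median centring, where it passed (limma adjusted p = 8.49e-05), so no direction and no fold is given for this probe. At A_55_P2129467 the arrays split, with 0.19 and 0.20 on arrays 1 and 4 and -0.16 and -0.26 on arrays 2 and 3 (mean -0.01 ± 0.23, SD, n = 4, limma adjusted p = 0.951). The probe well above background on every array in both channels, A_55_P1958479, had a mean of 0.02 ± 0.08 (SD, n = 4, limma adjusted p = 0.804).

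The remaining 4 genes had no probe that passed with normexp and loess. With median centring, Gm10406 passed at -0.36 (limma adjusted p = 0.000373). So did Gm3002 A_55_P2070748 at 0.59 and Gm3317 A_55_P2186230 at 0.16 (limma adjusted p = 2.95e-05 and 0.0196). Gm3264, with a promoter of the smaller set, had log2 ratios of 0.03, 0.19, 0.11 and 0.22, and a mean of 0.14 ± 0.08 (SD, n = 4, limma adjusted p = 0.0745). Gm10406, of the same set, had ratios of 0.01, 0.01, -0.22 and 0.06, with a mean of -0.03 ± 0.13 (SD, n = 4, limma adjusted p = 0.686). Gm3264 was thus above 0 on every array, and Gm10406 was near 0 except on array 3.

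Gm3317, of the larger promoter set, had ratios of 0.15, 0.28, -0.12 and 0.18 at A_55_P2104703 (mean 0.12 ± 0.17, SD, n = 4, limma adjusted p = 0.227). Its second probe had ratios of 0.16, 0.03, 0.003 and 0.04 and a mean of 0.06 ± 0.07 (SD, n = 4, limma adjusted p = 0.375). Gm3002 had -0.15, -0.14, -0.24 and -0.04 at A_55_P2185068 (mean -0.14 ± 0.08, SD, n = 4, limma adjusted p = 0.0688). At its other probe, well above background in 1 knockout-labelled and 4 wild-type samples, the mean was 0.02 ± 0.06 (SD, n = 4, limma adjusted p = 0.826). Both genes had their lowest ratio on array 3 at both probes.

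**Figure D2:**
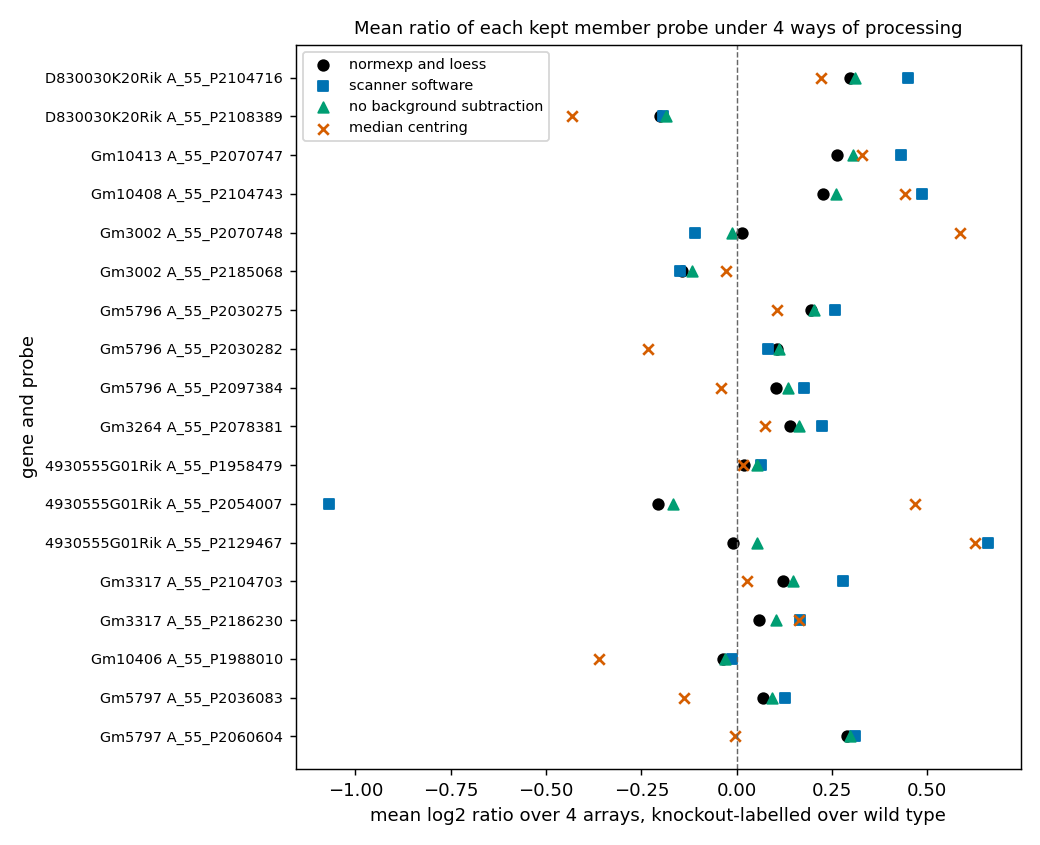
Mean over 4 arrays of the log2 ratio, knockout-labelled against wild type, for the 18 tested probes, computed with normexp and loess, with the scanner software's signals, without background subtraction and with median centring. For D830030K20Rik A_55_P2104716, Gm10413 and Gm10408 all 4 symbols lie above 0, whereas for 4930555G01Rik A_55_P2054007 they run from -1.07 to 0.47.

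Most kept probes of the listed genes also had their lowest ratio on the same array, array 3. The rule takes genes by symbol, but they were proposed with earlier results of these data known, and the pattern was seen only after the values were known and is given as a description, with no test. Array 3 had the lowest of the 4 ratios at 17 of the 18 kept probes (94.4%), beside 25.5% of the 30245 probes with a ratio on all 4 arrays. The exception was Gm3264, whose lowest ratio was on array 1. Since several probes can read the same near-identical transcripts, the 17 are not separate measurements of array 3. The median ratio of the 18 probes was 0.14, 0.13, -0.07 and 0.18 on arrays 1 to 4. The count was 16 with the scanner software's signals, 14 without background subtraction and 17 with median centring.

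The ratio of array 3 minus the mean of the other 3 arrays had a median of -0.17 over the 18 probes, from -0.33 at 4930555G01Rik A_55_P2129467 to -0.04 at Gm3264. Over all probes the median of this difference was 0.0015, with 90% of probes between -0.24 and 0.24. The low ratios were those of the knockout-labelled channel. There the level on array 3 was below the mean of the other arrays at 17 of 18 probes, with a median difference of -0.20, and the exception was Gm3002 A_55_P2070748. In the wild-type channel the median difference was -0.01, and 8 of the 18 probes were above the other arrays. Over all probes, 53.9% were lower on array 3 in the knockout-labelled channel, with a median of -0.01. Summed marker levels in that channel (log2) also varied between arrays, and their part in the low values on array 3 was not tested. Neuron markers were at 17.85 on array 3 and at 17.79 to 17.96 on the others, and microglia markers at 15.41 and at 15.3 to 15.4. Germ cell markers were lowest on array 3, at 9.735 beside 9.865 to 9.887, and were lowest there in the wild-type channel too, at 9.822 beside 9.835 to 9.972. Astrocyte markers were highest there, at 15.66 beside 15.3 to 15.45, as were oligodendrocyte markers, at 17.19 beside 16.62 to 17.16, and striatal markers, at 14.73 beside 14.36 to 14.56. Endothelial markers were at 13.91 beside 13.53 to 14.05, and neutrophil and monocyte markers at 12.84 beside 11.64 to 13.31.

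**Figure D3:**
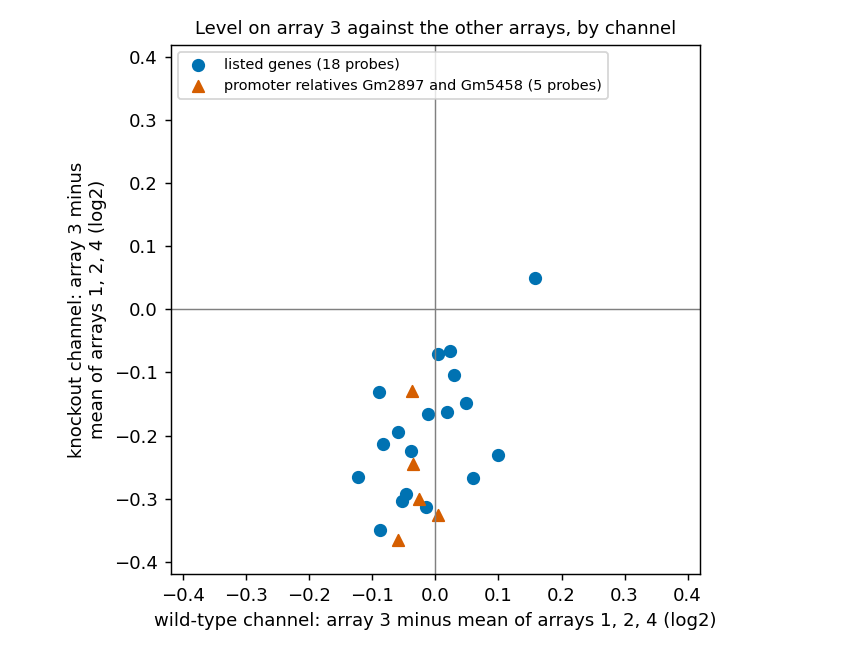
Level on array 3 minus the mean of arrays 1, 2 and 4, on the log2 scale, in the wild-type channel (horizontal axis) and the knockout-labelled channel (vertical axis), for 18 probes of the listed genes and 5 probes of the genes Gm5458 and Gm2897, which have related promoters. All points but 1 lie below 0 on the vertical axis, while they lie on both sides of 0 on the horizontal axis.

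Of further genes with related promoters, 2 could be followed. Among RefSeq's promoters, those of 50 further genes, 60 promoters in all and each on chromosome 14, shared at least 30% of their 12-base words with a promoter of the listed genes, a rule chosen after the values were seen. Of these genes only Gm5458 and Gm2897 could be matched to probes, 5 in all. Gm5458 lies 12.3 Mb from the nearest listed gene, outside both neighbour groups given below, and Gm2897 lies 0.13 Mb away. Of the 5, 2 were higher, both of Gm5458 (40%, beside 20.9% of all probes). At A_55_P2077664 the log2 ratios were 0.35, 0.35, 0.04 and 0.32, with a mean of 0.27 ± 0.15 (SD, n = 4, limma adjusted p = 0.0257). At A_52_P291428 they were 0.28, 0.36, 0.0014 and 0.35, with a mean of 0.25 ± 0.17 (SD, n = 4, limma adjusted p = 0.0368). The other 2 probes of Gm5458 had means of 0.12 each, and the probe of Gm2897 had 0.01 (limma adjusted p = 0.175, 0.238 and 0.934). The median over the 5 was 0.118. With median centring the means of the first 2 probes were 0.0084 and 0.08. Limma called 0 of the 5 without array 1, without array 2, without array 4 or without the replicate block, although 2 to 3 then had an unadjusted p under 0.05. In these settings 8 to 12.6% of all probes were called.

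Gm5458 and Gm2897 also had low values on array 3. The lowest ratio was on that array at 4 of the 5 probes (80%), the ratio there minus the mean of the others had a median of -0.27, and the knockout-labelled channel was lower at 5 of 5.

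**Figure D4:**
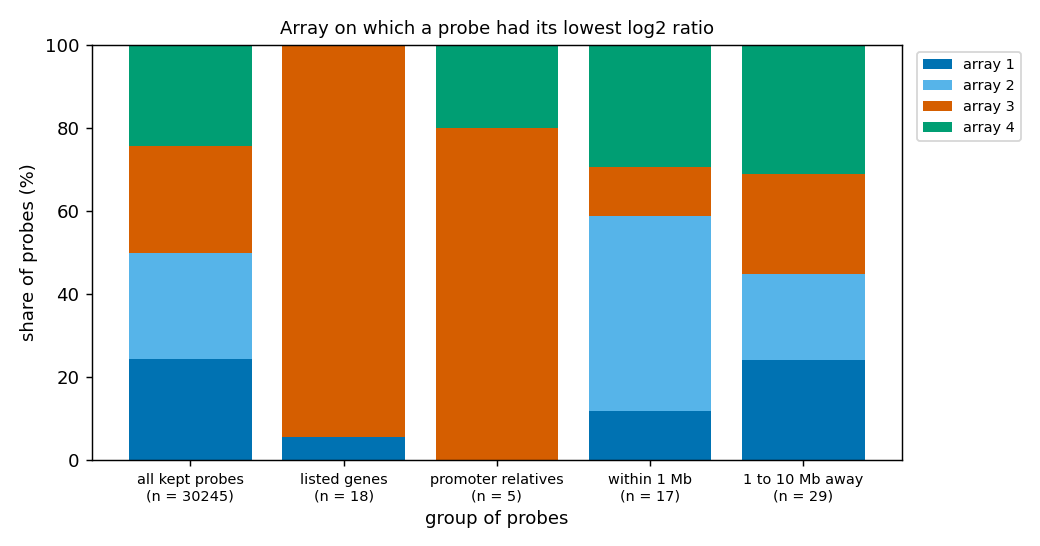
Share of probes, in percent, whose lowest log2 ratio of the 4 was on array 1, 2, 3 or 4, for all kept probes, the listed genes, the genes with related promoters, and genes within 1 Mb or 1 to 10 Mb of a listed gene. Array 3 takes 94.4% of the listed genes' probes and 80% of those with related promoters, but 25.5% of all probes, 11.8% within 1 Mb and 24.1% at 1 to 10 Mb.

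Genes that lie among or beside the repeats were looked at next, with 17 kept probes of 12 genes placed within 1 Mb of a listed gene, Gm2897 among them. Of these probes 2 were higher and 2 lower (23.5%), a share near the 20.9% of all probes, with a median of 0.06, and 2 of 17 had their lowest ratio on array 3. 1700110I01Rik, a gene with a RIKEN clone name, was lower at 2 of its 3 probes, by -0.42 ± 0.08 and -0.27 ± 0.11 (SD, n = 4, limma adjusted p = 0.00278 and 0.0156), while the third had 0.08 ± 0.11 (SD, n = 4, limma adjusted p = 0.271). Kctd6, an adaptor of cullin-3 ubiquitin ligases, had 0.24 ± 0.10 and passed (SD, n = 4, limma adjusted p = 0.0179), but -0.06 with median centring.

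Pdhb, a subunit of the pyruvate dehydrogenase complex, had 0.23 ± 0.10 at 1 of 2 probes and passed (SD, n = 4, limma adjusted p = 0.0209), but -0.22 with median centring. Fam107a, an actin-binding protein, and Abhd6, a lipase that degrades the endocannabinoid 2-arachidonoylglycerol, had no probe that passed, with means of -0.14 and 0.10 for Fam107a and 0.09 and 0.04 for Abhd6. Only 1 of the 17 passed without array 1 or array 3 (5.88%), and 2 without array 2 (11.8%), beside 8 to 10.9% of all probes. The count stayed at 4 without array 4 (23.5%, beside 12.6% of all probes).

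Farther out, at 1 to 10 Mb, 4 of 29 kept probes were higher and 3 lower (24.1%), again near the 20.9% of all probes, with a median of 0.01. Atxn7, a subunit of the SAGA histone acetyltransferase complex, was lower by -0.46 ± 0.09 at 1 of 2 probes (SD, n = 4, limma adjusted p = 0.00227), with 0.02 at the other. Ptprg, a receptor-type tyrosine phosphatase, was lower by -0.29 ± 0.11 at 1 of 3 probes (limma adjusted p = 0.0108), and Rarb, a retinoic acid receptor, by -0.27 ± 0.15 at 1 of 2 (limma adjusted p = 0.0232). Psmd6, a regulatory subunit of the proteasome, had 0.19 ± 0.05 and passed (limma adjusted p = 0.0199) but -0.22 with median centring, and Cfap20dc was higher by 0.20 ± 0.07 (limma adjusted p = 0.0229). The count of 7 was 3 without array 1, 3 without array 2 (10.3% each) and 4 without array 3 (13.8%), beside 8 to 10.9% of all probes. It was 5 without array 4 (17.2%, beside 12.6% of all probes).

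Dlg5, to which the takusan repeats are related, had a mean log2 ratio of 0.05 ± 0.04 (SD, n = 4, limma adjusted p = 0.452). Across the Dlg family of synaptic and junctional scaffolds, 1 of 7 kept probes was higher and 1 lower, with a median of -0.0088. This is 28.6% called, beside 20.9% of all probes. The higher one was Dlg4, the gene of PSD-95, at 0.30 ± 0.13 (SD, n = 4, limma adjusted p = 0.0145), but -0.05 with median centring. The lower one was 1 of 2 probes of Dlg2, which encodes the related scaffold PSD-93, at -0.24 ± 0.18 (SD, n = 4, limma adjusted p = 0.0474), with -0.06 at the other. Dlg1 had -0.11 and 0.01 and Dlg3 -0.01, and none of these passed. Limma called 0 of the 7 without array 2, with 2 at an unadjusted p under 0.05, and 1 without array 1, 3 or 4 (14.3%). Of all probes 8 to 12.6% were called with 1 array left out.

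The wider list of postsynaptic scaffold and AMPA receptor genes had calls at a share near that of the whole array. Of its genes, only Dlg4 and those of AMPA receptors are named above as acting with alpha-takusan proteins. Of its 37 kept probes, 5 were higher, 5 lower and 27 not called (27.0% called, beside 20.9% of all probes), with a median of 0.0119, and 12 of them (32.4%) had their lowest ratio on array 3. Cacng2, which encodes stargazin, an auxiliary subunit of AMPA receptors, was higher by 0.49 ± 0.11 at its 1 tested probe (SD, n = 4, limma adjusted p = 0.00236). Dlgap3, a scaffold that joins PSD-95 to Shank proteins, was lower by -0.34 ± 0.13 at 1 of 2 probes (SD, n = 4, limma adjusted p = 0.00917). The count of 10 was 5 without array 1 (13.5%), 3 without array 2 (8.11%), and 4 without array 3 or array 4 (10.8%). Of all probes 8 to 12.6% were called in these settings.

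The genes whose 4 ratios were most like those of D830030K20Rik A_55_P2104716, by Euclidean distance over the 4 arrays among probes with a symbol, lay on other chromosomes. They were Naa40, an N-terminal acetyltransferase, Macroh2a3, named for a macroH2A histone, Srrm1, a splicing cofactor, Slc1a6, a glutamate transporter, and Prickle1, a planar cell polarity protein. Their distances were 0.032, 0.036, 0.047, 0.049 and 0.061 on the log2 scale. Nothing is read from this likeness, since 4 values leave many of the 30259 kept probes close to any one of them.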

How the data were processed

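Groups, dyes and replicate numbers came from the labels. Each labelling used 200 ng of RNA, per the labels' protocols. Signals of spots and of their local background were deposited as linear intensities from Agilent's Feature Extraction; its version is 11.0.1.1 per the file headers and 10.7.3.1 per the submitters' processing notes. The authors' deposited series matrix holds log2 values, which equal the log2 ratio of processed Cy5 to Cy3 for 39020 probes with 1 spot (largest difference 2.6e-06), so they run wild type over knockout, with column medians of -0.05, -0.06, -0.04 and -0.03. The log10 ratio in the scanner files, Cy5 over Cy3, was deposited too. The flags deposited with each spot are 0 or 1.

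Median signals were corrected with normexp (offset 50) and normalized within arrays by loess, giving control spots no weight, with limma 3.58.1 under R 4.3.3. Outlier spots (139 to 186 per array) were left out, and spots of 1 probe averaged. Of 39429 probes 30259 were kept. Ratios were tested against 0 with lmFit and eBayes, with Benjamini-Hochberg adjustment over all kept probes, at 0.05; the array is the block that pairs both samples, as the labels give 1 of each genotype per array. Channel levels followed loess and Aquantile. Accessions were named through RefSeq genes of GRCm38.p6 (27427 probes, 69.6%), used for names and neighbourhood only, since the array is annotated on mm9. Only the fit and its adjustment were run on simulated ratios, with known changes added to noise of the observed spread. Background correction, normalization and filtering were not simulated.

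The listed genes and all gene lists were chosen with earlier results of these data known. Named were all listed genes, Ndrg2, Dlg1 to Dlg5, up to 5 genes of smallest p in each neighbour list, 3 in the postsynaptic list and the 5 most like genes; Gm5458 and Gm2897 were chosen after their values were seen. A planned list of genes with related proteins was not analysed here, and related promoters replaced it.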

Additional observations from a re-analysis of the deposited data

Results flagged for a closer look

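Of 48 probes checked, 4 had 1 array far from the other 3, by a gap to the nearest of them, over the range of the 4 values, above Dixon's critical value; chance alone gives about 1 in 20, here 2.4. Array 3 was the low one at 3 of them. Gm5796 A_55_P2030282 had a log2 ratio of -0.08 there and a mean of 0.17 on the other arrays, a gap of 0.908 of the range. Gm5797 A_55_P2060604 had 0.09 and 0.35, a gap of 0.869. Gm5458 A_55_P2077664 had 0.04 and 0.34, a gap of 0.906. At Dlg5 A_55_P1966159 it was array 1, with -0.02 beside a mean of 0.07 on the others, a gap of 0.889. These values are given with no explanation.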

How the results depend on the processing

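D830030K20Rik A_55_P2104716 kept its direction and its call in the alternatives that gave it a value; each other call among the listed genes was lost in at least 1. Calls per setting are given for the listed genes (7 in the report), all probes (6338), close neighbours (4), flanking genes (7), the Dlg family (2), the postsynaptic list (10) and the genes with related promoters (2), where they moved by over 1.5 times. Scanner software signals, and also the deposited series matrix, gave 4 for the listed genes, 4 flanking, 1 Dlg, 5 postsynaptic and 1 with related promoters, and an Ndrg2 ratio of -0.043 that did not pass. Without background subtraction the Dlg family had 1. Without the filter on dim probes it had 1 and the postsynaptic list 6. Median centring gave 23497 over all probes (7883 higher, 15614 lower), 13 close, 18 flanking, 6 Dlg and 31 postsynaptic. It shifted the median of all probes from -0.0121 to -0.157, and the Ndrg2 ratio was then -0.81 and passed. Without the replicate block there were 3 among the listed genes, 3393 over all probes, 4 flanking, 1 Dlg, 4 postsynaptic and 0 with related promoters. With 1 probe per gene there were 4 among the listed genes, 2 close, 1 Dlg, 5 postsynaptic and 1 with related promoters. Leaving out 1 array gave 1 to 5 among the listed genes, 2420 to 3815 over all probes, 1 to 4 close, 3 to 5 flanking, 0 to 1 Dlg, 3 to 5 postsynaptic and 0 to 2 with related promoters, and an Ndrg2 ratio of -0.21 to -0.17. The cause of these changes was not tested, beyond the fewer arrays or probes that some settings use.

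Median centring also added calls that kept their sign. Among them were Gm10406, Gm3002 A_55_P2070748, Gm3317 A_55_P2186230 and Fam107a A_55_P2003266. Others were Dlg1 A_51_P101858, Dlg2 A_52_P89049, Dlg3, and Gm5458 A_55_P1978018 and A_55_P2159506. Signs turned as follows. With the scanner software signals, and with the series matrix, Gm3002 A_55_P2070748 had -0.11 and 4930555G01Rik A_55_P2129467 had 0.66; without background subtraction they had -0.011 and 0.053. With median centring the values were -0.23 for Gm5796 A_55_P2030282, -0.042 for Gm5796 A_55_P2097384, -0.14 for Gm5797 A_55_P2036083, -0.0044 for Gm5797 A_55_P2060604, 0.47 for 4930555G01Rik A_55_P2054007 and 0.62 for A_55_P2129467. They were -0.29 for Dlg1 A_55_P1957900, -0.28 for Dlg5, -0.054 for Dlg4, -0.050 for Gm2897, -0.064 for Kctd6, -0.22 for Pdhb, -0.22 for Abhd6 and -0.22 for Psmd6, and -0.0043, -0.13, -0.011 and -0.19 for Macroh2a3, Srrm1, Slc1a6 and Prickle1. Leaving out 1 array gave ranges that cross 0 for 4930555G01Rik A_55_P1958479 (-0.0143 to 0.0548) and A_55_P2129467 (-0.0776 to 0.0737), Gm10406 (-0.0669 to 0.0279), Gm2897 (-0.0463 to 0.0777), Dlg3 (-0.055 to 0.0373) and Dlg1 A_55_P1957900 (-0.0332 to 0.0418). The planned list of related proteins was not run. With 4 arrays and weak signals, most of all for 4930555G01Rik, small ratios are not resolved.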
